A study of Drosophila melanogaster with 12 samples.

Results

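Bag of marbles (Bam) is the differentiation factor of the *Drosophila* female germline: germline stem cells keep it off, and their daughters switch it on and leave the stem cell state. Bam acts on mRNAs after transcription, together with RNA-binding partners, and RNA immunoprecipitation (RIP) recovers transcripts that travel with a tagged protein. The transcripts described here took a smaller share of the library counts with Bam-GFP than with GFP alone, by a fixed rule. They were chosen by their values in the 6 RIP-seq libraries and are 127 of 17737 genes in the RIP-seq count table. Each had a lowest value in the control libraries of at least 1.5 times its highest value in the Bam-GFP libraries, and a mean control value of at least 10 CPM (counts per 1000000 counts on genes in that library). Ribosomal protein genes were to be left out, but 0 of the 78 that reached 10 CPM in the control met the ratio.

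RIP-seq was performed on dissected ovaries of the Bam-fTRG-GFP line, in which a genomic transgene gives GFP-tagged Bam (3 samples), and of the Bam-Gal4 ::UASp-GFP line, in which the *bam* driver gives GFP without a fusion partner (3 samples). Both were bound to anti-GFP beads. The same study sequenced sorted germ cells of vas-GFP; bam_delta86/bam_delta86 and of vas-GFP flies (3 samples each), for which only the authors' mean over all libraries was used. All Bam-GFP libraries come from the former line and all control libraries from the latter, and the samples of the study include no input RNA. Therefore binding, the RNA content of the ovaries and the genetic background of the lines cannot be told apart. In whole ovaries, fewer cells of a type and less RNA per cell cannot be told apart either. Nothing states that the 3 samples of a line came from separate dissections, so the spread between them may be technical.

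The libraries held 7697440 to 12704088 counts on genes. The level of *bam* itself was 46.0 ± 5.75 CPM in the Bam-GFP libraries, against 11.7 ± 7.82 CPM in the control libraries (SD, n = 3 in each group). Summed over 9 detected germ cell markers, the libraries ranged from 4413 to 6047 CPM with Bam-GFP and from 3732 to 4667 CPM in the control, which overlap, and 7 of the 9 had a lower mean with Bam-GFP. The 10 follicle cell markers summed to 4466 to 6801 CPM with Bam-GFP and 967 to 1506 CPM in the control, and the muscle sheath markers to 33.8 to 128 and 87.8 to 164 CPM. Of the marker lists, 0 genes met the depletion rule, and their part in the levels of the depleted transcripts was not tested.

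Because the transcripts were chosen by these same libraries, their levels are given as a description without tests. Among 5738 genes of at least 10 CPM in the control, ribosomal protein genes left out, 2.21% met the rule, and 18.4% had every control library above every Bam-GFP library. In edgeR's quasi-likelihood fit of all 10971 tested genes, 52 genes (0.474%) were lower with Bam-GFP at an adjusted p under 0.05, and 26 of them were among the 127. At an unadjusted p under 0.05 the shares were 4.03% of all tested genes and 97 of the 127. Nothing is read from these counts, since the rule used the same contrast. The 26 became 16, 10 or 11 without the libraries numbered 1, 2 or 3. The 127 became 579 without the library Bam2, and 226, 201 and 281 without the control libraries WT1, WT2 and WT3, since leaving out a library makes the rule easier to meet.

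Most of the depletion was of moderate size. For 100 of the 127 transcripts the lowest control value was 1.5 to 2 times the highest Bam-GFP value, for 14 it was 2 to 3 times, for 9 it was 3 to 10 times, and for 4 it was over 10 times. The median ratio was 1.69. On the log2 scale, the mean CPM with Bam-GFP lay a median of −1.46 from the control for the 127, beside −0.26 for all 5738 genes. The second value depends on the scaling, since it was −0.05 with TMM and −0.02 with RLE factors, which correct for a few genes taking a large share of the counts. With either set of factors, every control library stayed above every Bam-GFP library for all 127. The rule's gap of 1.5 times fixed this in advance, since factors of this size could not close it. Of the 127, 64 still met the rule itself with TMM factors and 61 with RLE factors. When alignments to several places were added to the library totals, the means were lower with Bam-GFP for 127, and 85 had no overlap. A read with several alignments may enter these totals more than once.

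**Figure D1:**
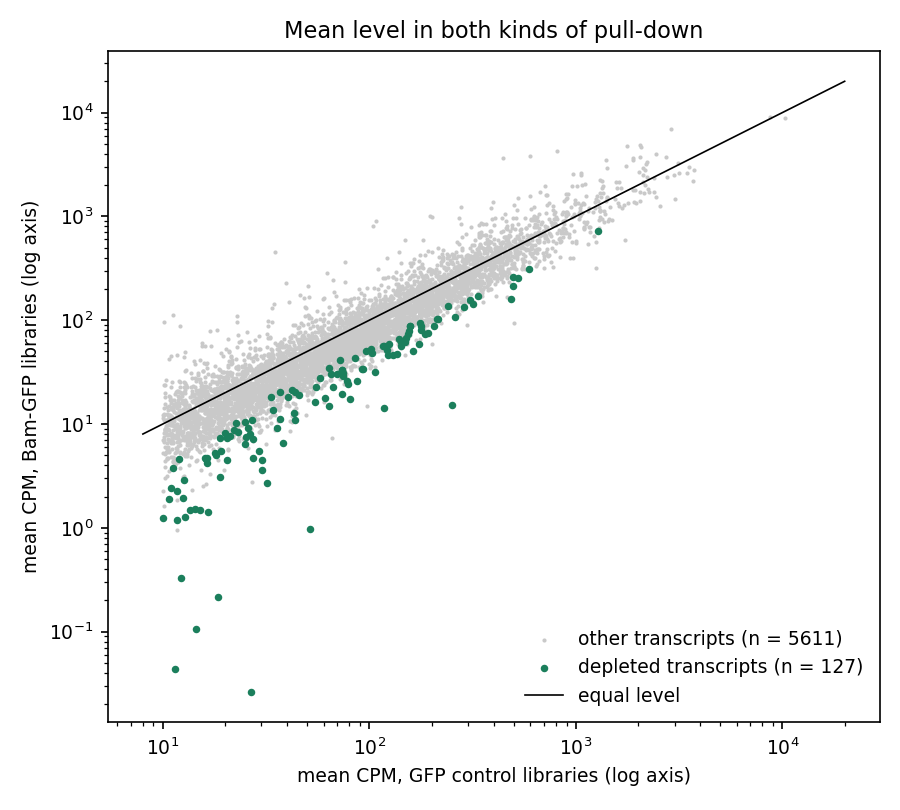
Mean CPM over the 3 GFP control libraries (x axis) against mean CPM over the 3 Bam-GFP libraries (y axis), both on log axes, for genes of at least 10 CPM in the control and above 0 with Bam-GFP; the line marks equal levels. The 127 depleted transcripts (green) lie below the line along the whole range, and a few at low control level lie under 1 CPM.

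The individual libraries took unequal parts in this pattern. Summed over the 127, the Bam-GFP libraries held 4865 to 6782 CPM and the control libraries 12895 to 14178 CPM. Bam1 gave the lowest Bam-GFP value for 86 of the transcripts (67.7%), against 53.6% of all genes at 10 CPM or more. Bam2 gave the highest for 82 (64.6%), against 45.5%, so that Bam2 set the denominator of the ratio most often. The median coefficient of variation of a depleted transcript was 33.2% among the Bam-GFP libraries and 15.8% among the control libraries, beside 32.1% and 24.3% for all these genes. A rule on the lowest control value favours a small control spread.

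The depleted transcript with the highest control CPM was *srl* (FBgn0037248, chromosome 3R from 4422483 to 4429335), which encodes Spargel, the fly homologue of the PGC-1 coactivators of mitochondrial genes. Its levels were 547, 811 and 808 CPM with Bam-GFP and 1236, 1248 and 1355 CPM in the control. The next were *mtrm*, *del*, *Ifrd1*, *PpD3*, *Pino*, *CG8176*, *Tab2*, *CG14712*, *Cdk7*, *TTLL5* and *Idgf4*, between 591 and 250.0 CPM in the control. CPM are not divided by transcript length, so this order is one of reads and not of RNA molecules. For 11 of these 12 the log2 value lay between −1.62 and −0.83, while that of *Idgf4* was −4.05. *Pino* (FBgn0016926, chromosome 2L from 1114654 to 1128953) stood out among the 11 with 120.0, 188 and 167 CPM with Bam-GFP against 453, 500.2 and 509 CPM. *Ifrd1*, a homologue of the mammalian interferon-related developmental regulator, had 162, 251 and 223 CPM against 434, 562 and 496 CPM. *Tab2*, an adaptor of the kinase Tak1, had 109, 185 and 136 CPM against 294, 293 and 367 CPM.

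**Figure D2:**
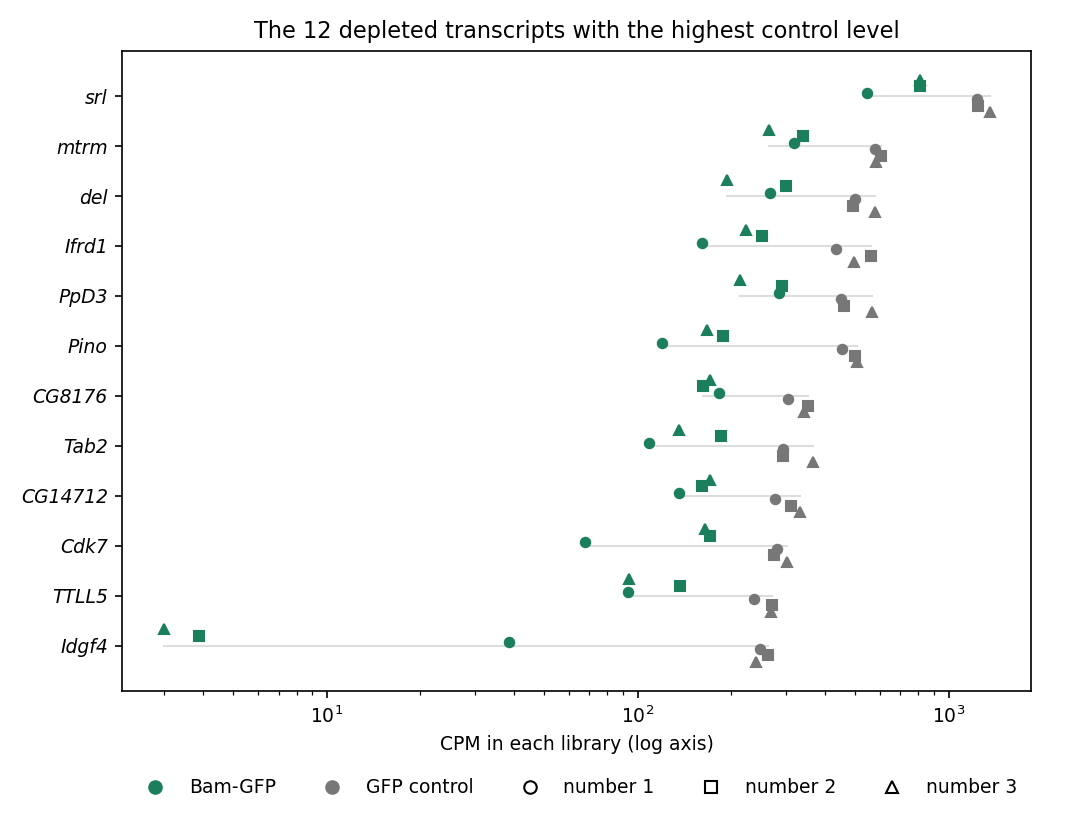
CPM in each library (log axis) of the 12 depleted transcripts with the highest mean control CPM, with Bam-GFP in green, the GFP control in grey and the shape giving the library number. The groups are apart for each gene, with gaps of 1.52 to 2.41 times for 11 of them and of 6.23 times for *Idgf4*, whose Bam1 value lies far above those of Bam2 and Bam3.

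Members with a known role were grouped after their values had been seen, which placed 72 of the 127. The group headed meiosis and the oocyte held 4 transcripts, and this heading does not describe *Phf7*, given below. *mtrm* (FBgn0010431, chromosome 3L from 8413012 to 8414103) encodes Matrimony, the inhibitor that restrains Polo kinase until meiotic maturation. It had 317, 341 and 265 CPM with Bam-GFP and 579, 608 and 584 CPM in the control, with close control values. Its target *polo* was at 544 ± 77.0 and 473 ± 124 CPM (SD, n = 3), which overlap. *tor*, the maternal receptor tyrosine kinase that patterns the embryo's ends, had 66.9, 117 and 125 CPM against 204, 251 and 193 CPM. Of its pathway, *csw* and *Ras85D* lay at log2 values of 0.57 and −0.15, and *trk* and *tsl*, at control means of 2.65 and 2.54 CPM, lay at −0.84 and −4.88 with overlapping groups. *Phf7*, a histone reader known for male germline identity, had 79.4 ± 23.7 CPM against 155 ± 14.8 CPM. *aPKC*, the polarity kinase, had 73.6 ± 13.8 CPM against 185 ± 24.9 CPM, and its partner *par-6* lay close by at a log2 value of −1.09 with a ratio of 1.20, while *baz* lay at 0.32.

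The piRNA pathway, which silences transposons in the germline, contributed *del*, *krimp* and *shu*. *del* (FBgn0086251, chromosome 2L from 21145137 to 21148546) encodes Deadlock, which joins Rhino at the loci that give rise to piRNAs. It had 266, 300 and 194 CPM with Bam-GFP and 502, 492 and 581 CPM in the control. Its partner *rhi* was near the threshold, with 17.0 ± 7.63 CPM against 32.7 ± 3.22 CPM and a ratio of 1.33. *cuff* and *moon*, which work with them, were less deeply counted and overlapped between groups. *krimp*, a Tudor protein of the nuage that brings Aubergine and AGO3 together, had 26.0, 74.0 and 42.0 CPM against 135, 158 and 118 CPM. Of the other 7 nuage factors listed, *aub*, *vas* and *qin* lay at log2 values of −0.21, −0.16 and −0.12 with overlapping groups. *mael* and *AGO3* reached −1.06 and −0.80 with ratios of 1.02 and 1.17, so that their groups did not overlap but were under 1.5. *shu*, a co-chaperone needed for loading Piwi proteins, had 17.1, 40.4 and 43.3 CPM against 100.1, 84.6 and 93.6 CPM.

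Among 6 transcripts for DNA replication, repair and chromosomes, *Mcm7*, *Cdk7* and *Nse4* lay below all measured partners of their complexes. The rule chose these members for lower values with Bam-GFP and did not choose their partners, so nothing is read from this order. *Mcm7*, a subunit of the replicative helicase, had 31.4, 58.0 and 49.1 CPM with Bam-GFP and 120.2, 144 and 126 CPM in the control. The other 5 subunits lay at log2 values from −0.34 to 0.53 with overlapping groups, against −1.49 for *Mcm7*. *Cdk7*, the kinase that activates other Cdks and phosphorylates RNA polymerase II, had 67.9, 171 and 165 CPM against 281, 276 and 303 CPM, while its partners *CycH* and *Mat1* lay at 0.39 and −0.23. *Nse4* of the Smc5/6 complex had 6.41 ± 2.60 CPM against 24.9 ± 13.4 CPM, and the 4 partners counted in both groups lay at −0.03 to 0.53. The kinetochore subunit *Ndc80* was just inside the threshold, with 13.7 ± 3.75 CPM against 34.2 ± 6.58 CPM. Its partners *Nuf2*, *Spc25* and *Kmn2* lay at −0.60, −0.06 and −1.77, against −1.31 for *Ndc80*. *Kmn2* had a control mean of 1.24 CPM and overlapping groups, too low to compare. The mismatch repair gene *Pms2* and *E(var)3-9*, a modifier of position effect variegation, completed the group at ratios of 1.54 and 1.52.

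The 11 transcripts for transcription and RNA had ratios between 1.503 and 1.66, with *srl* the highest by control CPM. *Sf3b6*, a small subunit of the SF3b complex that recognises the branch point, had 23.1, 89.9 and 38.6 CPM with Bam-GFP and 168, 140.4 and 178 CPM in the control. Its 6 partners lay at log2 values from −0.56 to 1.002, against −1.68 for *Sf3b6*. *Dis3*, a nuclease of the RNA exosome, had 20.2 ± 6.24 CPM against 43.4 ± 4.70 CPM. The 9 other exosome subunits spread from −1.23 to 1.61, but most of them were under 15 CPM. *eIF2Bgamma*, part of the exchange factor for eIF2, had 18.4 ± 3.35 CPM against 33.4 ± 2.37 CPM, and the other 4 eIF2B subunits lay at −0.26 to 0.44. *Eaf*, a partner of elongation factors, had 87.2 ± 4.89 CPM against 157 ± 12.1 CPM, and *Ssu72*, a phosphatase of the polymerase II tail, had 56.2 ± 8.36 CPM against 117 ± 7.05 CPM. The snoRNA host gene *Uhg3* had 34.3 ± 5.88 CPM against 63.5 ± 0.576 CPM, and 5 other host genes lay at −0.97 to 0.11. These values compare genes and carry no test, and log2 values near −0.26 stand at the median of all genes.

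**Figure D3:**
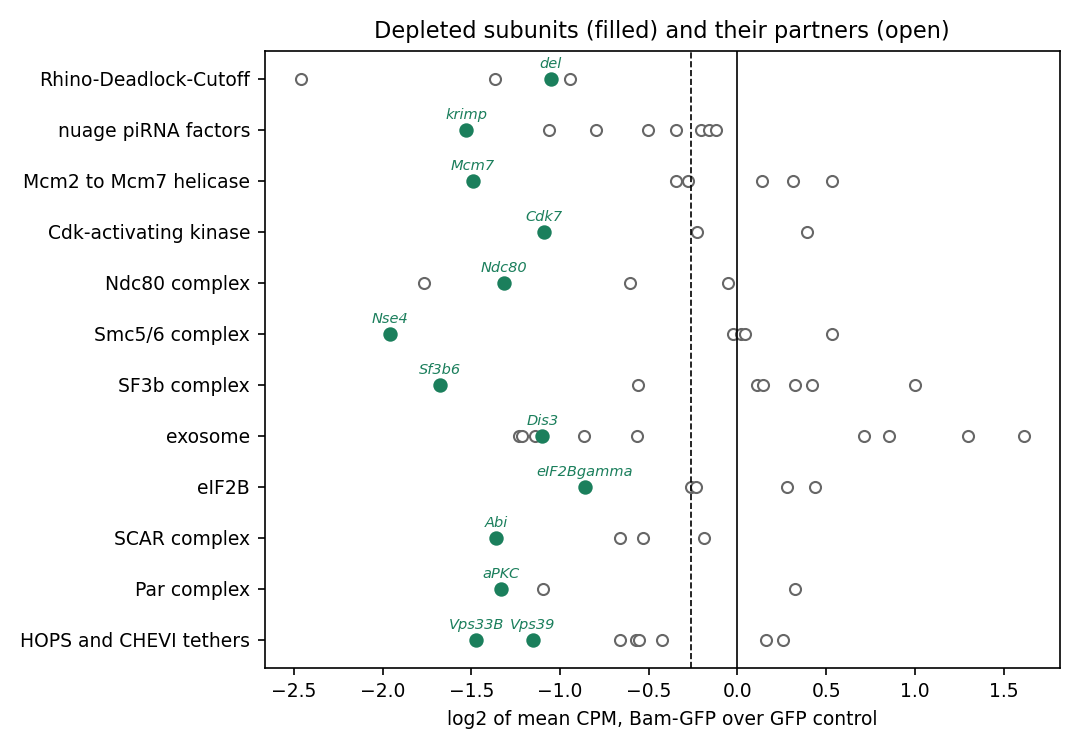
Log2 of mean CPM with Bam-GFP over mean CPM in the GFP control (x axis) for depleted subunits (filled, named) and their partners in the same complex or pathway (open). The dashed line is the median of all genes at 10 CPM or more (−0.26). *Mcm7*, *Cdk7*, *Nse4*, *Sf3b6*, *eIF2Bgamma*, *Abi*, *krimp*, *aPKC*, *Vps39* and *Vps33B* lie left of all of their open partners, while *del*, *Ndc80* and *Dis3* do not. The filled genes were chosen by the rule for lower values with Bam-GFP, so nothing is read from their place.

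Signalling and cytoskeleton gave 12 transcripts, with ratios from 1.51 to 1.87. *PpD3*, a protein phosphatase, had 284, 292 and 214 CPM with Bam-GFP and 451, 460 and 568 CPM in the control. *TTLL5*, an enzyme that modifies tubulin tails, had 93.1, 137 and 94.1 CPM against 236, 271 and 269 CPM. *Abi*, a subunit of the SCAR regulator of actin, had 66.8, 82.4 and 74.9 CPM against 158, 145 and 272 CPM, with WT3 well above the other controls. The SCAR partners *SCAR*, *Hem* and *HSPC300* lay at log2 values of −0.53, −0.66 and −0.19. The rest included the kindlin *Fit1*, the calpain *CalpB*, the phosphatase *MKP-4*, and *rumi*, which glycosylates Notch, at ratios of 1.56, 1.74, 1.52 and 1.87.

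Membrane traffic and autophagy gave 8 transcripts. The small GTPase *Rab30* was the most depleted of them, with 6.08, 15.2 and 11.7 CPM with Bam-GFP and 36.6, 55.7 and 37.9 CPM in the control. *Vps39*, which tethers late endosomes in the HOPS complex, had 33.1 ± 9.89 CPM against 73.8 ± 2.999 CPM. *Vps33B*, of the related CHEVI tether, had 7.62 ± 4.68 CPM against 21.2 ± 2.06 CPM. The 6 other tether subunits lay at log2 values of −0.66 to 0.26, all with overlapping groups. *Atg6*, the fly Beclin, had 4.798, 10.9 and 6.77 CPM against 20.0, 28.3 and 27.6 CPM. The other traffic genes, *RN-tre*, *RabX1*, *Vta1* and *Pex10*, had control means of 240.2, 141, 40.5 and 22.6 CPM and ratios of 1.54, 1.56, 1.64 and 1.63. The ubiquitin ligase genes were *Cul6* and *Herc4*, at ratios of 1.76 and 1.52.

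The 12 largest ratios were spread over metabolic, secreted, neural, noncoding and ungrouped genes. The cytochrome P450 gene *Cyp4p2* (FBgn0033395, chromosome 2R from 9237512 to 9239831) had 203, 192 and 307 counts in the control libraries and 0, 0 and 1 count with Bam-GFP. Over the summed counts this was a ratio of 857, with a 95% counting interval (Clopper-Pearson) of 153 to 33881. *Dscam4*, an immunoglobulin superfamily adhesion gene, had 143, 71 and 90 counts against 0, 1 and 0, a ratio of 371 (66.1 to 14699). The ABC transporter gene FBgn0010549 had 82, 108 and 191 counts against 0, 0 and 4, a ratio of 116 (45.0 to 429). *Dh44-R2*, a receptor of the diuretic hormone Dh44, had 132, 115 and 245 counts against 0, 5 and 0, a ratio of 120.1 (51.1 to 371). These intervals cover counting error only. The 4 transcripts were thus read in each control library and nearly absent with Bam-GFP. Of their relatives, *Cyp4p1* and *Cyp4p3* had means under 1 CPM in both groups, too low to compare, and *Dscam1* had 7.77 ± 6.36 CPM with Bam-GFP and 5.33 ± 0.112 CPM in the control. The sorted germ cell RNA-seq listed *Cyp4p2*, FBgn0010549 and *Dh44-R2* at authors' means of 558, 365 and 444 normalised counts.

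*Idgf4* (FBgn0026415, chromosome X from 9927973 to 9930948), a secreted chitinase-like growth factor, had the largest ratio among the 12 of highest control CPM, 6.23. It had 38.6, 3.89 and 2.99 CPM with Bam-GFP and 247, 263 and 240.3 CPM in the control. The control values were close together, whereas Bam1 stood apart from the other Bam-GFP libraries, and the log2 value went from −4.05 to −6.19 without the libraries numbered 1. Of the *Idgf* family, *Idgf6* lay at −1.03 with a ratio of 1.39, *Idgf2* at 0.09 and *Idgf3* at 2.49. *CG8097* (FBgn0030660) had 10.7, 22.1 and 9.997 CPM against 100.4, 129 and 125 CPM, a ratio of 4.53. The antiviral factor gene *pst* had 5.31, 6.22 and 1.89 CPM against 31.6, 34.04 and 25.2 CPM. *Rdh1* of the retinol dehydrogenase family had 0.685, 1.17 and 2.36 CPM against 11.2, 29.9 and 8.53 CPM, with WT2 high. *CG13982* and *hwt* had ratios of 3.32 and 3.30 at control means of 12.6 and 12.8 CPM.

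**Figure D4:**
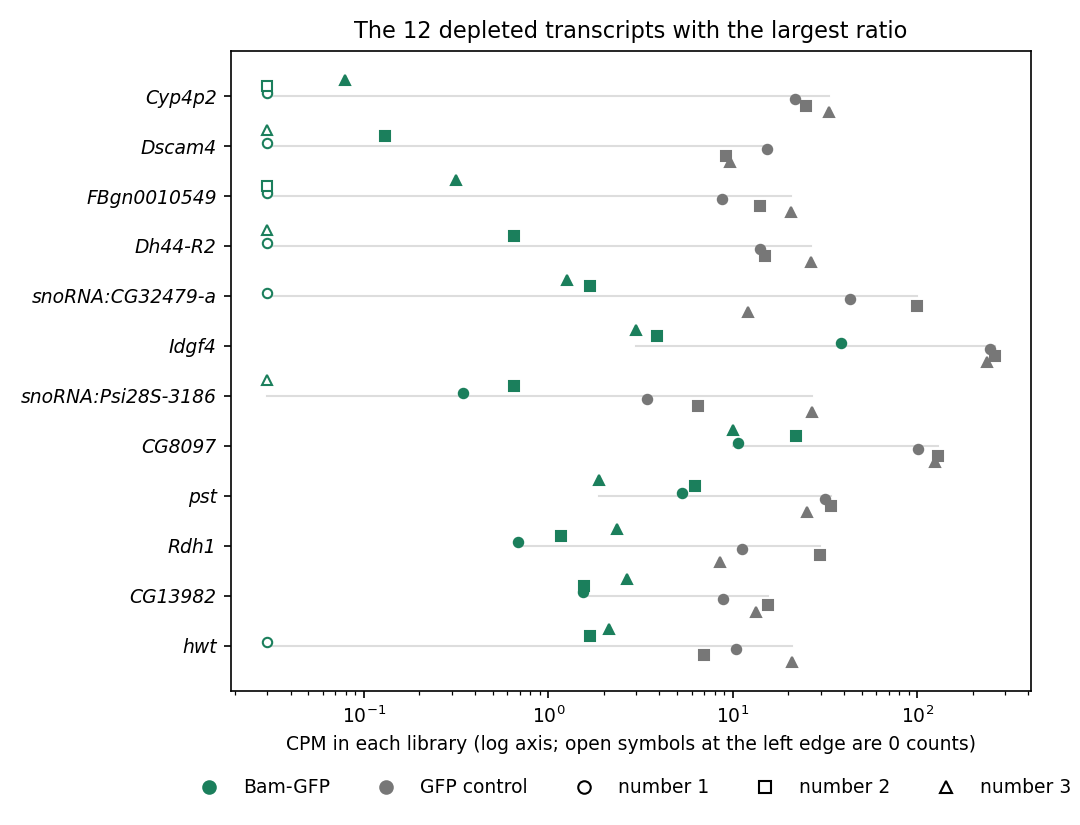
CPM in each library (log axis) of the 12 depleted transcripts with the largest ratio of lowest control to highest Bam-GFP value, with Bam-GFP in green, the GFP control in grey and the shape giving the library number; open symbols at the left edge are libraries with 0 counts. *Cyp4p2*, *Dscam4*, FBgn0010549 and *Dh44-R2* are under 1 CPM in every Bam-GFP library and above 8 CPM in every control library.

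Further metabolic, secreted and neural genes followed. *Oat* (ornithine aminotransferase), *Miox* (myo-inositol oxygenase) and *Lst* (the hormone Limostatin) had control means of 14.3, 11.7 and 13.5 CPM and Bam-GFP means of 1.52, 1.19 and 1.49 CPM. The channel gene *Ih* had 0.857, 5.83 and 1.42 CPM against 30.6, 47.4 and 17.9 CPM. *Tep2*, a thioester protein of immunity, had 52.1 ± 10.9 CPM against 122 ± 13.5 CPM, while its relatives *Tep4* and *Mcr* lay at log2 values of 0.23 and 0.03. *GstT4* had 5.51 ± 1.59 CPM against 19.03 ± 4.95 CPM, and *GstT1*, *GstT2* and *GstT3* overlapped between groups. *Ctl2*, a choline transporter-like gene, had 4.03, 25.4 and 23.3 CPM against 73.0, 111 and 57.1 CPM, with Bam1 low. *Arc42*, an acyl-CoA dehydrogenase, had 2.31, 2.46 and 4.57 CPM against 23.4, 25.3 and 8.10 CPM, with WT3 low. *Cyt-c1* of respiratory complex III was depleted at a ratio of 1.61, the 1 member among 57 oxidative phosphorylation genes at 10 CPM or more. Markers of fat body and hemocytes summed to 148 to 214 CPM with Bam-GFP and 316 to 715 CPM in the control, with 5 of 6 detected and *NimC1* at 0. Nearly all of that sum was *apolpp*, and only 3 of the 5 detected markers had a lower mean with Bam-GFP. In the longer list for these cells, 1 of 3 genes at 10 CPM or more had a lower mean, with a median log2 value of 0.74. Their part in the result was not tested.

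Noncoding RNAs were 7 of the 127, with *Uhg3*, given above. *snoRNA:CG32479-a* (FBgn0263461), a small nucleolar RNA whose locus overlaps *Usp10*, had 0, 1.68 and 1.26 CPM with Bam-GFP and 43.1, 99.6 and 12.1 CPM in the control. Its neighbour *snoRNA:CG32479-b* had 6.66 ± 0.476 and 7.55 ± 6.29 CPM, which overlap. *snoRNA:Psi28S-3186*, which overlaps *kra* and is named for a pseudouridine of 28S rRNA, had 0.343, 0.648 and 0 CPM against 3.43, 6.50 and 26.8 CPM, and most of its control level came from WT3: the log2 value was −5.21 with all libraries and −3.32 without those numbered 3. Together, 29 small nuclear and nucleolar RNA genes reached 10 CPM in the control with a median log2 value of −1.35. Of the 29, 2 were depleted and 5 had every control library above every Bam-GFP library. The shares among all genes at 10 CPM or more were 2.21% and 18.4%, and nothing is read from these counts. Pseudogenes of 18S and 28S rRNA (*18SrRNA-Psi:CR41602* and *28SrRNA-Psi:CR45848*) had ratios of 1.78 and 1.86, and reads of the many rRNA copies make both values uncertain. The antisense RNA *asRNA:CR44029* and *lncRNA:CR43650* had ratios of 1.65 and 1.93, and reads of an antisense RNA and its partner gene cannot be told apart without strand.

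Another 55 transcripts were not placed in a group, and 43 of all 127 carry only a CG or CR number. Those left ungrouped had control means from 10.1 to 497 CPM and a median ratio of 1.70. *CG17270* and *CG10621* had ratios of 2.47 and 2.43, and *sosie* had 14.7 ± 9.80 CPM with Bam-GFP against 63.7 ± 3.002 CPM; these 3 were chosen after their values were seen. Of 33 lists of gene families and cell types, 27 held 0 depleted transcripts. Beside those given above, *Cyp4p2* was the 1 of 10 cytochrome P450 genes at 10 CPM or more, *GstT4* the 1 of 23 glutathione and antioxidant genes, and *eIF2Bgamma* the 1 of 42 translation factors. The lists of 31 proteasome, 48 mitochondrial ribosomal protein, 8 chaperonin and 11 glycolysis genes had 0 members. With 2.21% of all genes meeting the rule, lists of these sizes would hold about 1 or none, so nothing particular to them is read from these counts. The 11 chorion and 7 vitelline membrane genes had 0 members, with median log2 values of 1.26 and 2.09.

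At the threshold the transcripts did not part into separate classes, with 39 genes at ratios of 1.5 to 1.6 and 59 at 1.4 to 1.5. Just inside lay *tim* (1.501), *CG6479*, *tai*, *Ndc80* and *CG40160* (1.51). The clock gene *tim* had 57.2, 78.1 and 86.8 CPM with Bam-GFP and 161, 130.3 and 170 CPM in the control. *tai*, an ecdysone receptor coactivator, had 34.3, 46.5 and 63.5 CPM against 109, 95.5 and 106 CPM. Just outside lay *Grip75*, *CG11777*, *apolpp*, *Kmn1* and *CG3107*, at ratios of 1.498 to 1.48. *Grip75*, a gamma-tubulin ring protein, had 10.97, 23.7 and 28.2 CPM against 45.0, 42.2 and 46.2 CPM, a profile much like that of *Ndc80*. *apolpp*, the precursor of the fat body lipoprotein, had 154, 142 and 207 CPM against 704, 374 and 309 CPM.

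On the Release 6 assembly, the arms 2L, 2R, 3L, 3R and X held 16.0%, 20.8%, 24.0%, 20.8% and 15.2% of the 125 annotated genes, beside 17.4%, 20.0%, 19.3%, 24.0% and 18.5% of the other genes at 10 CPM or more. Chromosome 4 held 3 of the 125 (2.4%), beside 0.79% of the others. Of their immediate neighbours at 10 CPM or more (n = 138), 0 pairs were depleted together, and the neighbours' median log2 value was −0.27, beside −0.26 for all genes. Another annotated gene overlapped 61 of 124 placed loci. No such share of the other genes is given here, so this count is not read as a trait of the depleted transcripts. The locus length with introns had a median of 2672 bases (quartiles 2001 and 5863), beside 3271 bases (1818 and 7094) for the other genes at 10 CPM or more. Loci of 20000 bases and over made up 5.6% of the depleted and 9.16% of the other genes. Among the 82 genes of the mirror rule, which asks for the same gap with Bam-GFP higher, the median was 11407 bases and 29.6% were that long.

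Length also went with the log2 value of Bam-GFP over control among all genes at 10 CPM or more. The median log2 value was −0.41 for loci under 1000 bases, −0.42 from 1000 to 2000, −0.35 from 2000 to 4000, −0.20 from 4000 to 8000, −0.06 from 8000 to 20000 and 0.05 above. The share that met the rule was highest from 2000 to 4000 bases, with 50 of 1650 genes (3.03%). It was 1.20% in the shortest and 1.36% in the longest class, so it did not follow the median. Its part in the depletion of single transcripts was not tested.

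**Figure D5:**
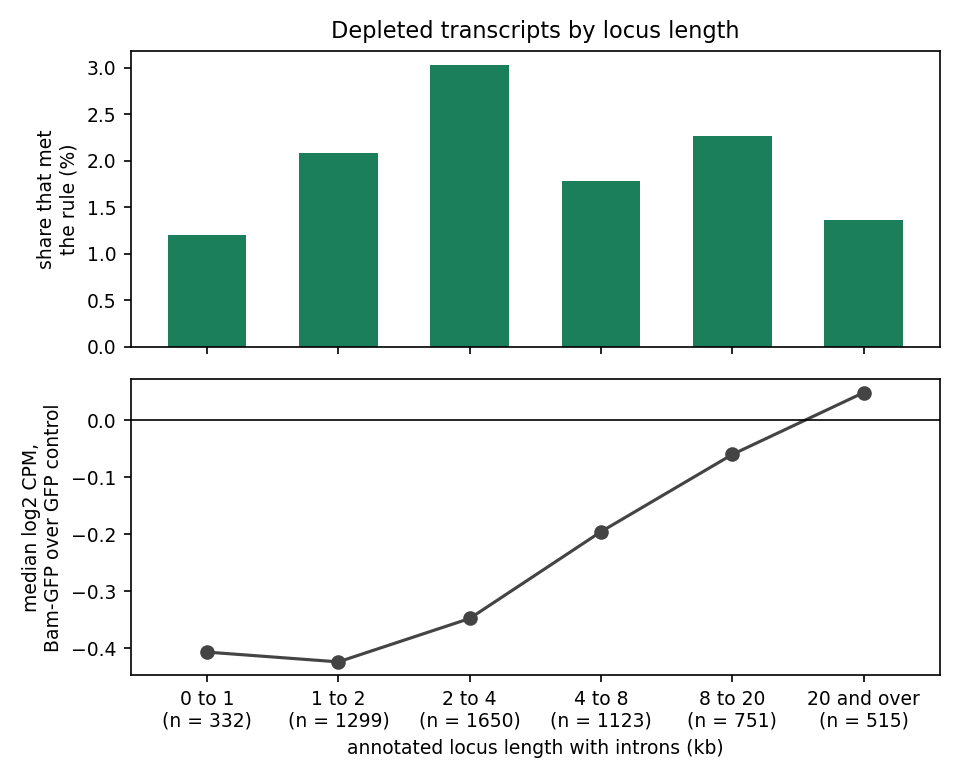
Genes of at least 10 CPM in the control by locus length in kb, with the number of genes per class below. The upper bars give the share that met the depletion rule, highest at 3.03% from 2 to 4 kb, and the lower points give the median log2 of Bam-GFP over GFP control, which goes from −0.42 to 0.05 with length.

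The sorted germ cell RNA-seq table holds the genes that the study took as differentially regulated, so being listed is itself a selection. It listed 76 of the 127 (59.8%), beside 66.0% of all genes at 10 CPM or more outside the ribosomal proteins. The authors' mean over its libraries was a median of 1739 normalised counts for these, ranging from 45.7 for *CG7378* to 22607 for *Oat*. Over all 6555 listed genes the median was 1357. The 6555 did not have to reach 10 CPM in the control pull-downs, as the 127 did, so these medians are not compared. *srl*, *tim* and *pst* had authors' means of 13329, 9498 and 10038, and *Cyt-c1* had 13061. Among the 76 listed, *Oat* thus had the highest RNA-seq mean while at 14.3 CPM in the control pull-downs, and *Idgf4* had 117 at 250.0 CPM. The other 51, among them *mtrm* and *Mcm7*, have no value there. The table gives no values of single libraries, so that neither value has an error.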

How the data were processed

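RIP-seq libraries of 3 Bam-GFP and 3 GFP control samples were analysed. Per the study's methods, single-end reads were mapped to FlyBase 6.05 with STAR 2.4.0 and HTSeq 0.11.0 gave the raw counts that the authors deposited, together with a fold change and a p-value of their paired test, which were not used. For RNA-seq, the authors deposited a DESeq2 table, of which only the mean normalised signal over all libraries was used and not the fold changes, statistics or p-values. The strand setting of the counting is not given in the sources used here. Columns were mapped to groups by the names Bam and WT.

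CPM were computed from each library's total over 17737 gene lines. Another 5 lines name no gene and were left out. They include alignments to several places, which made up 79.3% to 89.6% of all tallied lines. Symbols were found for 17599 identifiers, and positions are those of the RefSeq Release 6 annotation. The 10971 genes counted in any library were fitted with edgeR 4.0.16 in R 4.3.3 (quasi-likelihood test, robust, TMM factors of 0.807 to 1.13, replicate number as a block, Benjamini-Hochberg adjustment), because the study used a paired test. The fit was also run on simulated counts drawn without a replicate effect, from which nothing is read for the calls given here. Counting intervals for ratios of summed counts are exact binomial (95%, SciPy 1.17.1).

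The members and all gene lists were chosen with earlier results of these data known, and role groups and partner sets were written after the values were seen. Named genes were the 12 with the highest control CPM, the 12 with the largest ratio, 5 on each side of the threshold, and members of the lists; genes of role groups, partner sets and of the RNA-seq comparison were chosen after their values were seen. Alternatives were other scalings, filters, thresholds, DESeq2 1.42.0, no block, and libraries left out.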

Additional observations from a re-analysis of the deposited data

How the results depend on the processing

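The number of depleted transcripts, 127, moved with the choices behind it. It was 68 with TMM factors (64 of them shared) and 65 with RLE factors (61 shared). It was 49 with alignments to several places added to the totals (34 shared), an alternative chosen after seeing the data. The mirror rule, also chosen after seeing the data, gave 82 genes, and 124, 131 and 120 under the same 3 scalings. A looser ratio, midway between 1 and 1.5, gave 359 and a ratio of 2 gave 27, and a minimum of 50 CPM gave 68. Leaving out libraries or numbers gave 172 to 767.

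Same-numbered libraries deviated from their group means with correlations of −0.15, 0.25 and −0.13 across 5738 genes, so their values went together weakly or not at all. Whether same-numbered samples were processed together cannot be told from these values. With the replicate block as a rule, a ratio of 1.5 within each same-numbered pair, 350 genes met it. Without the block, edgeR called 73 lower and 227 higher, and 35 of the 127.

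The edgeR calls at an adjusted p under 0.05 (52 lower, 189 higher, 26 of the 127, and 442 lower at an unadjusted p under 0.05) became 87, 108, 38 and 765 with library size only. They became 104, 304, 46 and 517 with DESeq2, 16, 102, 12 and 357 with edgeR's filter, and 13, 100, 9 and 313 with at least 10 counts in every library, where fewer genes were tested. Without each number in turn they ranged from 18 to 44, 55 to 121, 10 to 16 and 289 to 407.

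Of 111 values of the 23 named members under other scalings or without a number, all 111 were below 0. The depletion rule fixed this sign in advance. It put every control library above every Bam-GFP library, by a gap that the TMM and RLE factors could not close. Leaving out a number could not reverse the sign either, so nothing is read from it. Of the 111 values, 14 moved by more than the spread between replicates. Other measures of length were not run, since the tables used here give locus lengths only. Depth limits the ratios of 16 members with fewer than 10 counts in at least 1 Bam-GFP library.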
